A study of Mus musculus with 2 samples.

Results

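The mitochondrial respiratory chain passes electrons from succinate through complex II (succinate dehydrogenase), from ubiquinol through complex III (the cytochrome bc1 complex), over the mobile carrier cytochrome c, and to oxygen at complex IV (cytochrome c oxidase). ATP synthase, complex V, uses the proton gradient that this builds. Complex II is encoded entirely in the nucleus, whereas complexes III, IV and V each combine nuclear subunits with subunits made inside the mitochondrion. Several subunits of complex IV exist in forms known from heart and skeletal muscle, testis or lung, and subunit c of ATP synthase, which forms the rotating ring, is encoded by several nuclear genes. Purkinje cells, the output neurons of the cerebellar cortex, fire at high rates and carry a large demand for ATP.

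The genes described are the 49 protein-coding genes whose mouse symbol marks a nuclear subunit of complexes II to V, or cytochrome c, out of 21461 protein-coding genes outside the mitochondrial chromosome. They were chosen by symbol alone (Sdha to Sdhd, Uqcr, Cyc1, Cycs, Cox4i, Cox5, Cox6a to Cox6c, Cox7a to Cox7c, Cox8 and Atp5). Of these, 4 belong to complex II, 9 to complex III, 1 is cytochrome c, 18 belong to complex IV and 17 carry an Atp5 symbol. The samples were 2 pools, each of 50 laser-captured Purkinje cells from 8-month-old wild-type C57Bl6 male adults, with no treatment or altered allele named, so there is 1 group with 2 replicates and no contrast between conditions. Both pools carry the same donor identifier, so they may come from the same animal, and their spread may measure technical variation only. A Smart-seq protocol is linked to pool 2, and that of pool 1 was not given in the sources used here.

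Levels are TPM, the deposited share of transcripts corrected for length and scaled to the same total in each library, given per pool or as mean ± SD (n = 2). The libraries held 23830685 expected counts in pool 1 and 27907662 in pool 2, of which the 49 genes took 605100 and 834430. All 10 Purkinje cell markers listed were detected, with a summed level of 41138 TPM in pool 1 and 39758 TPM in pool 2. The 8 markers of Bergmann glia and astrocytes were detected too, at a sum of 3982 and 4338 TPM. So were all 6 oligodendrocyte markers (218 and 213 TPM) and all 8 granule cell markers (118 and 148 TPM). All 5 markers of molecular layer interneurons were detected as well (47.5 and 66.2 TPM). Respiratory chain genes are active in every cell type, and the part of glia and other cells in the levels below was not tested. In such pools, fewer cells of a type and less RNA per cell cannot be told apart.

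Some of these genes share sequence with each other or with copies elsewhere in the genome, which bears on how their reads could be assigned. The 3 genes of subunit c, Atp5g1, Atp5g2 and Atp5g3, encode proteins of 136, 146 and 141 residues whose last 78 residues are the same. The stretches of 237 coding bases for those residues and the stop codon are shown from GENCODE M21 (GRCm38), 5′ to 3′, with capitals at the 64 positions where the genes differ. Atp5g2 differs from Atp5g1 at 36 of them and Atp5g3 from Atp5g1 at 51, so reads from this stretch can be told apart between the 3 genes.
Atp5g1: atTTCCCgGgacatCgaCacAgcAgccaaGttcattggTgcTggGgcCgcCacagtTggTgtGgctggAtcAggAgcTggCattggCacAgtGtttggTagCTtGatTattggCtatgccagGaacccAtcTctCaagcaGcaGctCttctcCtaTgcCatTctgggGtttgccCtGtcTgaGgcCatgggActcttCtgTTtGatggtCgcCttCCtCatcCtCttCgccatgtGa
Atp5g2: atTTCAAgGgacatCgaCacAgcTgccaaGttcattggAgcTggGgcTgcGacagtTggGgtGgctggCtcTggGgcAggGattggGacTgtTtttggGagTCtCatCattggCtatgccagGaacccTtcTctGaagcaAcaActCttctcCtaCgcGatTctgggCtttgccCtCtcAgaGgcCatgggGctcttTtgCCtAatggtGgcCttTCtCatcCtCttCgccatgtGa
Atp5g3: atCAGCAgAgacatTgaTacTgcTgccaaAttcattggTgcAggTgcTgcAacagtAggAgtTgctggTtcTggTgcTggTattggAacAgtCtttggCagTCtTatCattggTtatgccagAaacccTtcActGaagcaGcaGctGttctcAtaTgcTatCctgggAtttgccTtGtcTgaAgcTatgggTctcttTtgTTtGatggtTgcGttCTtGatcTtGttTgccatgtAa

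Cycs, on the other hand, has copies that hardly differ from it. The first 90 coding bases are shown for Cycs on chromosome 6 and for the processed pseudogene Gm10108 on chromosome 5, with capitals where Gm10108 differs; these are its only 2 mismatches over 318 coding bases. Gm10053 on chromosome 19, annotated as protein-coding, is the same as Cycs over all 318 coding bases.
Cycs: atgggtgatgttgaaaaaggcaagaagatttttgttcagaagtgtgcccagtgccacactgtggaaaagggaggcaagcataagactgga
Gm10108: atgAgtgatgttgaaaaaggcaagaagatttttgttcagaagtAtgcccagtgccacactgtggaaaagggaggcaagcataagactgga

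Transcripts of these subunits were abundant in both pools. At a TPM of 1 or more in both pools, 47 of the 49 were detected, beside 51.6% of all protein-coding genes. Together they summed to 50169.6 TPM in pool 1 and 56534 TPM in pool 2, which is 7.18% and 8.01% of the TPM of nuclear protein-coding genes. Their median level was 917 TPM in pool 1 and 895 TPM in pool 2, whereas that of all protein-coding genes was 1.49 and 1.45 TPM. A mean of 1000 TPM or more was reached by 22 of the 49 (44.9%), beside 0.429% of all protein-coding genes, and these 22 are among only 92 such genes in the libraries. By mean TPM, Cox8a, Atp5h, Cox6c and Cox5a ranked 17, 18, 19 and 21 among protein-coding genes.

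Complexes IV and V supplied most of this sum. Complex V genes took 40.5% of the summed TPM of the 49 genes in pool 1 and 38.9% in pool 2, and complex IV genes took 37.4% and 40.7%, so the order of these 2 complexes differed between the pools. Complex III followed with 18.8% and 17.6%, complex II with 2.75% and 2.28%, and Cycs with 0.518% and 0.429%. The 22 genes at 1000 TPM or more comprised 10 of complex IV, 7 of complex V and 5 of complex III, and none of complex II. By expected counts, which are not corrected for length, complex II took 5.24% and complex V 43.7%, as means of the pools.

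**Figure D1:**
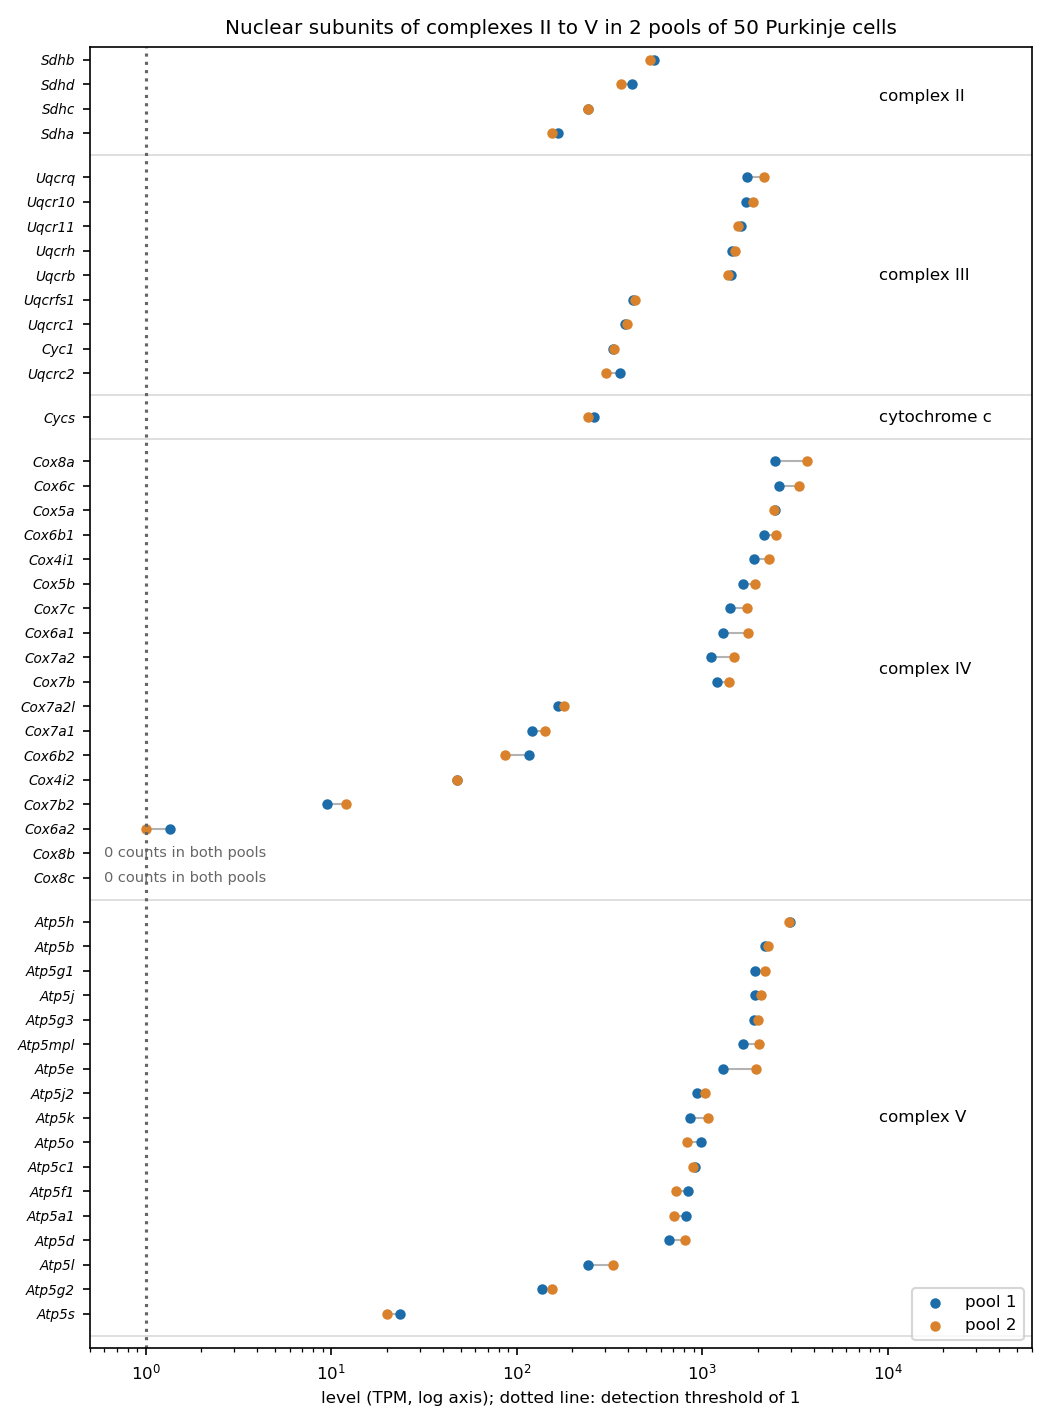
Level of each of the 49 genes in TPM (log axis) in pool 1 (blue) and pool 2 (orange), joined by a grey line and ordered by mean level within each complex; the dotted line is the detection threshold of 1 TPM. The 5 small complex III genes sit apart from its 4 larger ones, and 8 complex IV genes lie far below the other 10, with Cox8b and Cox8c at 0 counts.

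Complex II genes lay between 155 and 547 TPM. Sdhb, the iron-sulphur subunit (chromosome 4, 140961203 to 140979193), was the highest, with 547 TPM in pool 1 and 526 TPM in pool 2. Sdhd, a membrane anchor that binds ubiquinone and haem, had 420.1 and 367 TPM. Its partner in the membrane, Sdhc, had 244 and 241 TPM, and Sdha, the flavoprotein that oxidises succinate (chromosome 13, 74322254 to 74350280), was the lowest at 168 and 155 TPM. The order of the 4 genes was the same in both pools and their values did not overlap between genes, with Sdhb 3.27-fold above Sdha in pool 1 and 3.39-fold in pool 2. The assembled complex holds these subunits in equal number, whereas their transcript levels differed by more than the spread between the pools.

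Complex III genes fell into a lower and a higher set. The 4 catalytic and core subunits had median levels of 372 TPM in pool 1 and 364 TPM in pool 2. Among them, the Rieske iron-sulphur protein Uqcrfs1 had 424 and 435 TPM, and the core protein Uqcrc1 had 382 and 394 TPM. Cyc1, the cytochrome that hands electrons to cytochrome c, had 331 and 335 TPM. Uqcrc2, the other core protein and the lowest by mean (chromosome 7, 120635176 to 120659524), had 362 and 304 TPM, and its order relative to Cyc1 differed between the pools.

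The 5 small supernumerary subunits of complex III were all higher than all 4 core subunits in both pools. Uqcrq (chromosome 11, 53427922 to 53430831), a small subunit that contacts cytochrome b, led with 1739.8 TPM in pool 1 and 2165 TPM in pool 2. Uqcr10 had 1719.6 and 1879 TPM, and Uqcr11 had 1617 and 1563 TPM. Uqcrh, the acidic hinge protein that helps Cyc1 dock cytochrome c, and Uqcrb, which binds near ubiquinone, lay between 1381 and 1503 TPM. The levels are corrected for length, but the sets also differ in length: the core transcripts measured 1194 to 1641 nt and the small ones 447 to 546 nt. The part of length in the difference of level was not tested.

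Cycs, cytochrome c itself (chromosome 6, 50562563 to 50566538), was listed at 260.1 TPM in pool 1 and 243 TPM in pool 2, which is below every complex III gene. Nearly identical copies of Cycs were listed far higher. Gm10108, whose start is shown above, had 1235 and 1222 TPM. Gm10053 had 1214 and 1054 TPM. Added together, the TPM of Cycs and its copies came to 2708 and 2519, of which 90.4% lay on the copies in both pools. These transcripts differ in length, with 3058 nt for Cycs, 946 for Gm10053 and 319 for Gm10108, and TPM gives short ones more weight. By expected counts, Cycs had 15333 and 17982, Gm10053 20473 and 22549, and Gm10108 5365 and 6733. The summed TPM is thus not the level that Cycs would have with all these reads. The deposited value of Cycs alone leaves out the reads assigned to these copies.

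In complex IV, 10 genes were listed above 1000 TPM in both pools, and they include the main form of every nuclear subunit covered. Cox8a, the smallest membrane subunit (chromosome 19, 7215153 to 7217616), had 2476 TPM in pool 1 and 3685 TPM in pool 2. Cox6c, a membrane subunit, had 2591 and 3322 TPM. Cox5a, which faces the matrix and binds a thyroid hormone metabolite, had 2475 and 2435 TPM. Of the 18 nuclear complex IV genes covered, Cox8a and Cox6c were the highest in pool 2, whereas Cox5a hardly differed between the pools.

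The other 7 genes of this high set followed closely. Cox6b1, which faces the intermembrane space and joins the complex into dimers, had 2157 and 2498 TPM, and Cox4i1, which carries the site of allosteric inhibition by ATP, had 1898 and 2295 TPM. Cox5b, which binds zinc, had 1665 and 1930.1 TPM. Of the small single-pass membrane subunits, Cox7c had 1418 and 1745 TPM, Cox6a1 had 1298 and 1768 TPM, Cox7a2 had 1111 and 1494 TPM, and Cox7b had 1203 and 1394 TPM. Each of these 7 had the higher level in pool 2.

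For each of the 6 complex IV subunits encoded by several genes, the form known as ubiquitous or liver-type predominated. The 7 genes listed as forms of other tissues took 1.58% of the complex IV sum in pool 1 and 1.26% in pool 2. Cox4i2, the form known from lung and pericytes, had 48.0 TPM in both pools, or 2.26% ± 0.294 of the sum of Cox4i1 and Cox4i2. The 5 endothelial and pericyte markers, all detected, summed to 104 and 133 TPM. Ly6c1 had 62.7 and 89.85 TPM, Vtn 23.9 and 25.6 TPM, and Rgs5 14.0 and 12.4 TPM. Cldn5 had 2.30 and 3.23 TPM, and Pecam1 1.39 and 1.55 TPM. The part of endothelial cells and pericytes in Cox4i2 was not tested.

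The forms known from heart and skeletal muscle differed among themselves. Cox7a1 (chromosome 7, 30184144 to 30186078) had 121 TPM in pool 1 and 143 TPM in pool 2, from 636 and 953 expected counts, which is 8.25% ± 0.552 of the COX7A family. Cox6a2 was at the detection threshold with 1.35 and 1.00 TPM, from 15 and 14 expected counts, or 0.0802% ± 0.0335 of the COX6A pair. Cox8b had 0 counts in both pools, and 3 counts, the limit that a count of 0 allows, would be 0.575 TPM in pool 1 and 0.453 TPM in pool 2. Of 9 muscle markers, 2 passed 1 TPM in both pools, Myl2 at 7.20 and 4.58 TPM and Acta1 at a mean of 1.205 ± 0.0636 TPM, while Ckm and Actc1 had 0 counts. Every listed muscle marker was under 10 TPM, and Cox7a1 was over 100 TPM. The cell type that the Cox7a1 reads came from was not tested.

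Forms known from testis also differed. Cox6b2 (chromosome 7, 4751792 to 4753094) had 116 TPM in pool 1 and 86.0 TPM in pool 2, from 904 and 870.0 expected counts, which is 5.10% and 3.33% of the COX6B pair. Cox7b2 had 9.56 and 12.0 TPM, or 0.822% ± 0.0467 of the COX7B pair. Cox8c had 0 counts in both pools, where 3 counts would be 0.401 and 0.316 TPM. All 5 germ cell markers (Cyct, Prm1, Tnp1, Ldhc and Odf1) had 0 counts in both pools. The cell type that the Cox6b2 and Cox7b2 reads came from was not tested. The proteins of Cox6b1 and Cox6b2 are the same at 39.4% of aligned positions and their coding bases at 51.6%, and no copy of Cox6b1 or Cox6b2 met the rule for near-identical copies given below.

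Cox7a2l, grouped with COX7A by symbol, encodes a protein that joins complexes III and IV into supercomplexes in place of a COX7A subunit. C57Bl6 mice are known to carry a shorter form of this protein. It had 167 TPM in pool 1 and 180.3 TPM in pool 2, between Cox7a2 and Cox7a1, and 10.9% ± 1.41 of the family sum. Since its transcript is 1079 nt long, its share by expected counts was larger, at 17.7% and 14.8%, and that of the 364-nt Cox7a1 was smaller, at 3.47% and 3.17%.

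**Figure D2:**
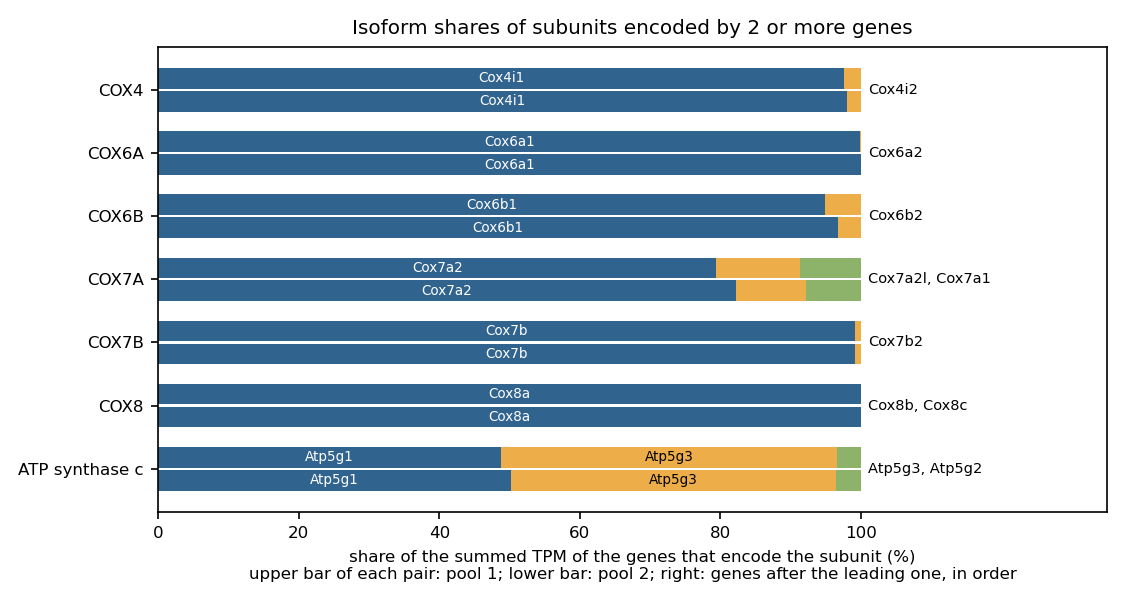
Share of each gene, in percent of the summed TPM of the genes that encode the same subunit, for 7 subunits; the upper bar of each pair is pool 1 and the lower bar pool 2, with the genes after the leading one named at the right in order. Complex IV subunits are led by 1 gene each, from 80.8% for Cox7a2 to all of the COX8 sum for Cox8a (means of the pools), whereas Atp5g1 and Atp5g3 share ATP synthase subunit c.

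The 3 highest ATP synthase genes came from the stalk, the catalytic head and the membrane sector. Atp5h, subunit d of the peripheral stalk (chromosome 11, 115415689 to 115419962), had 2969.6 TPM in pool 1 and 2945 TPM in pool 2 and was the highest by mean. The catalytic subunit beta, Atp5b (chromosome 10, 128083273 to 128090391), had 2195 and 2254 TPM. Atp5g1 had 1936 and 2176 TPM. The lowest was Atp5s, coupling factor B, with 23.5 and 20.0 TPM, which is not part of the core enzyme.

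Within the catalytic head, F1, the 5 subunits were not at equal levels. Subunit alpha, Atp5a1, is present in the enzyme in the same number as beta, but was listed at 814 TPM in pool 1 and 705 TPM in pool 2, so the level of Atp5b was 2.70-fold and 3.20-fold that of Atp5a1. Between their main coding transcripts the ratio was 1.94 and 1.99, and between expected counts of the genes 1.61 and 1.74, both chosen after seeing the data. Subunit gamma, Atp5c1, the rotating shaft, had 917 and 895 TPM, and delta, Atp5d, had 664 and 808 TPM. Epsilon, Atp5e, the smallest of the head, had 1301 and 1954 TPM. Transcripts of the single-copy shaft subunits exceeded those of alpha in pool 1 except for Atp5d, and all 3 exceeded it in pool 2.

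The subunit c genes contributed unequally. Atp5g1 held 48.8% of their sum in pool 1 and 50.2% in pool 2, and Atp5g3, with 1898 and 2002 TPM, held 47.8% and 46.2%. Atp5g2 had 136 and 155 TPM, or 3.43% and 3.57%. By expected counts Atp5g3 was ahead of Atp5g1, with 52.2% and 50.6% against 44.0% and 45.4%, since its transcript is longer (717 against 609 nt). With the listed TPM of the copies added, as described below and not rescaled for length, Atp5g2 came to 9.88% and Atp5g3 to 38.0%, as means of the pools.

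Of the remaining stalk and membrane subunits, Atp5j (F6, in the peripheral stalk) had 1935 and 2086 TPM and Atp5mpl, a small membrane proteolipid, 1658 and 2023 TPM. Atp5j2 (subunit f) and Atp5k (subunit e, which helps ATP synthase dimers form) lay between 865 and 1073 TPM. Atp5o, which ties the stalk to the head, had 992 and 828 TPM, and Atp5f1, subunit b of the stalk, had 838 and 722 TPM. Atp5l, subunit g, was listed at only 242 and 329 TPM, with most reads of its sequence assigned to a copy.

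Near-identical copies were sought among GENCODE M21 transcripts at 95% identity or more over at least 100 nt and 50% of either transcript. They were found for 16 of the 49 genes, 41 copies in all, of which 35 are in the files. For 5 genes the copies held over 20% of the summed TPM of gene and copies, and for the other 11 at most 1.18%, as means of the pools. A copy shorter than its gene weighs more in TPM than in reads. Gm10221, the same as Atp5l over 309 bases, was listed at 1875 TPM in pool 1 and 2171 TPM in pool 2, so 88.6% and 86.9% of the Atp5l sum lay on copies. Gm10175, the same as Atp5g2 over 645 bases, was listed at 334 and 390.4 TPM, or 71.0% and 71.6% of that sum. Whether the reads came from the genes or from the copies was not tested.

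Cox7c and Atp5g1 kept the larger part. For Cox7c, Gm12338 (the same over 192 bases) was listed at 1010.3 and 1222 TPM, and all Cox7c copies took 42.2% and 41.7% of the summed TPM. By expected counts, Gm12338 had 1864 and 2860, beside 11686 and 18228 for Cox7c. For Atp5g1, Gm10039 (99.8% identical over 411 bases) was listed at 709.6 TPM in pool 1 and 528 TPM in pool 2, or 26.8% and 19.5%. By expected counts, Gm10039 had 4394 and 4147, beside 19618.5 and 27917.5 for Atp5g1. For both genes the share on these copies was smaller by expected counts than by TPM. The deposited TPM bounds, whose level was not given in the sources used here, were widest for 2 of these 5 genes. In pool 1 their width was 22.9% of the deposited posterior mean TPM for Atp5g2 and 19.3% for Atp5l. The median was 3.81% over the 43 genes at a mean of 100 TPM or more. The TPM used as the level here can lie outside these bounds: for Sdhb in pool 1 it was 547 TPM, with an upper bound of 543 TPM. With the listed TPM of all copies added, the 49 genes came to 8.45% of nuclear protein-coding TPM as a mean of the pools, instead of 7.59%. The added TPM was not rescaled for length. Since the copies at the highest levels are shorter than their genes, their reads would add less TPM to the genes.

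**Figure D3:**
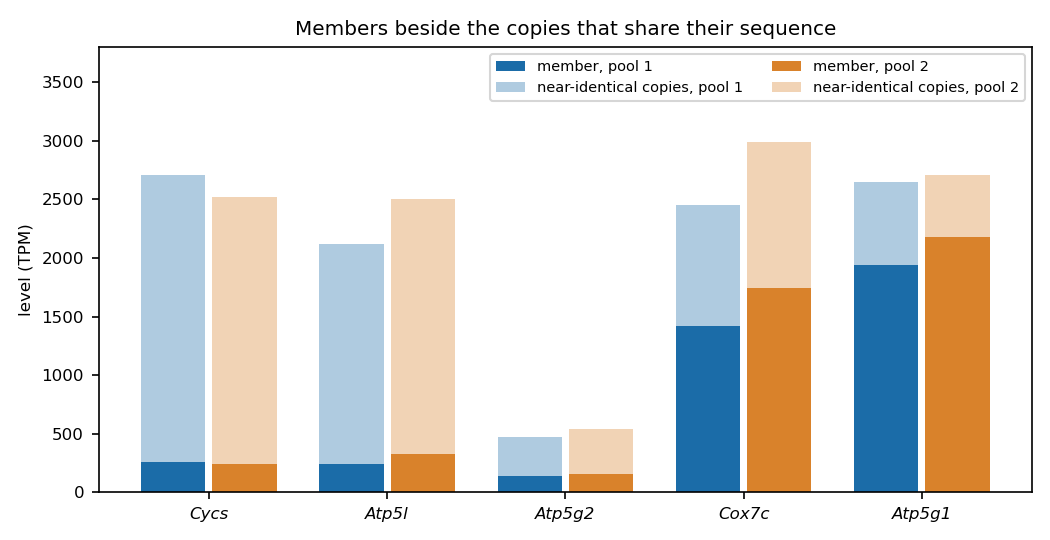
Level in TPM of the 5 genes with over 20% of their sum on near-identical copies (solid bars) and of those copies (pale bars, stacked), in pool 1 (blue) and pool 2 (orange). Cycs and Atp5l are listed at 242 to 329 TPM. The plain sum with their copies, whose transcripts are shorter, is 2119.7 to 2708 TPM and was not rescaled for length.

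A large part of the RNA of some genes was assigned to transcripts that are not annotated as protein-coding. Of the 34 genes with several transcripts, the leading transcript was the same in both pools for all 34, and for 23 the coding transcripts held 90% or more of the TPM. For 4 genes they held less than 50%: Atp5j (23.8% in pool 1 and 26.0% in pool 2), Atp5f1 (25.8% and 26.9%), Cox5b (34.8% and 36.1%) and Cox7b (41.2% and 42.4%). In each of these 4 genes the share was slightly higher in pool 2, and the values of Atp5j and Atp5f1 overlapped.

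The transcripts that led in these 4 genes were of different kinds. In Atp5j, a 526-nt transcript annotated as a retained intron took 74.85% and 72.2% of the gene's TPM. In Cox7b, a retained-intron transcript, also of 526 nt, took 58.05% and 55.1%. In Atp5f1, a transcript annotated for nonsense-mediated decay took 71.9% and 71.2%, and in Cox5b a 362-nt processed transcript took 64.3% and 62.9%. Atp5b, with a coding share of 50.8% and 52.8%, also had a 478-nt processed transcript at 41.05% and 38.2%.

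Atp5a1 was the gene whose coding share differed most between the pools, at 71.0% in pool 1 and 85.0% in pool 2. Its transcript annotated for nonsense-mediated decay had 233.9 TPM in pool 1 and 100.8 TPM in pool 2, whereas the main coding transcript had 575 and 597 TPM. The main coding transcript was thus slightly higher in pool 2, while the gene as a whole was lower there. In Uqcrc2, 21.5% and 20.9% lay on a transcript of the older annotation that is not in M21 and was counted here as not coding. Exons of Atp5f1 and Atp5j also overlap genes on the opposite strand, Wdr77 (16.3 TPM in both pools) and Gabpa (5.69 and 3.63 TPM). Exons of Atp5a1 overlap Haus1 (24.4 and 21.4 TPM), and those of Uqcrc2 overlap Pdzd9 (5.52 and 4.90 TPM). Cox4i1 overlaps Emc8 (88.5 and 93.8 TPM), and several other members have such overlaps too. The strand setting of the quantification was not given in the sources used here.

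**Figure D4:**
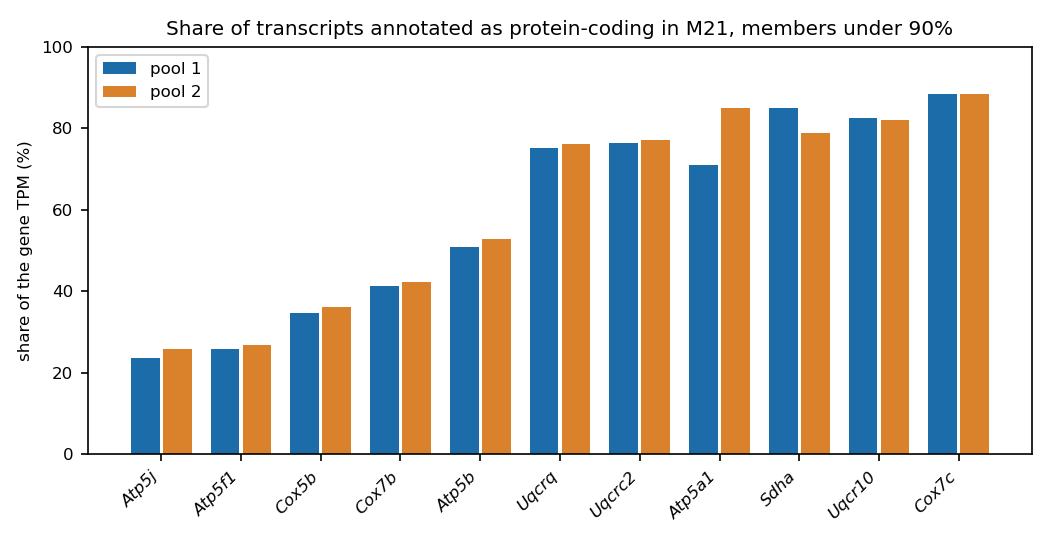
Share of the gene's TPM on transcripts annotated as protein-coding in GENCODE M21, in percent, for the 11 genes with several transcripts and a mean share under 90%; blue bars are pool 1 and orange bars pool 2. Atp5j and Atp5f1 are at 23.8% to 26.9%, and Atp5a1 differs between the pools by more than the other genes.

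The subunits made in the mitochondrion were listed above their nuclear partners in complexes III and V. Cytochrome b, mt-Cytb, had 6049 TPM in pool 1 and 6534 TPM in pool 2, above all 9 nuclear complex III genes. For complex V, mt-Atp6 had 10198 and 8822 TPM and mt-Atp8 had 10089 and 9566 TPM, above all 17 nuclear genes. The genes mt-Atp8 and mt-Atp6 overlap on the mitochondrial chromosome, so part of their reads cannot be told apart. In complex IV the levels overlapped: mt-Co1, the catalytic subunit, had 4646 and 3983 TPM and mt-Co2 3659 and 4450 TPM, whereas mt-Co3, at 2633 TPM in both pools, was below Cox8a in pool 2. Ndufa4, which copurifies with complexes I and IV and is not covered by the symbol rule, had 3721 and 4278 TPM. It exceeded all 18 nuclear complex IV genes covered here in both pools.

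The median of the assembly factors was below that of the subunits, and their levels overlapped. Of 35 listed, 34 were detected, and their median was 31.8 TPM in pool 1 and 31.0 TPM in pool 2, against 917 and 895 TPM for the subunits. The highest of this list was Atpif1, at 1698 and 1713 TPM, which inhibits the reverse reaction of ATP synthase and is not itself an assembly factor. Next came Cox14, which helps assemble newly made mt-Co1, at 775 and 819 TPM, and the copper chaperone Cox17 at 678 and 729 TPM. Pet117 was the one under the threshold, with 0.60 and 1.11 TPM. Among 9 regulators of mitochondrial biogenesis, all detected, the highest were the coactivator Ppargc1a (24.2 and 16.9 TPM), the mitochondrial transcription factor Tfam (15.6 and 18.7 TPM) and the orphan receptor Esrrg (11.0 and 8.61 TPM). Nrf1, whose product binds promoters of many respiratory chain genes, had 4.07 and 5.73 TPM.

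The RefSeq promoter table (GRCm38.p6) held windows for 37 of the 49 genes, reaching from 250 bases before to 50 after each start, 40 windows in all. The NRF-1 motif was searched as GCGCANGCG on both strands, where overlapping matches count separately. It was found in 13 of the 40 windows (32.5%), against 8.58% of the 21262 windows of protein-coding genes and 6.25% of all 32851 windows. The shorter motif CCGGAAG, bound by the ETS factor GABP, was found in 12 windows (30.0%), against 11.6% and 8.86%. TATAAA was found in 3 windows (7.5%), namely those of Atp5l, Cox7b2 and Cox8b, against 12.6% and 13.6%. A match describes these letters and is not a measured binding site.

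The levels of genes with and without an NRF-1 match overlapped. The 13 genes with an NRF-1 match had a median of 906 TPM and ranged from 145 to 2957 TPM, and the 24 without one had a median of 1301 TPM and ranged from 0 to 3081 TPM. These levels leave out near-identical copies. Of the 5 genes with over 20% of their sum on copies, Cycs, Atp5l and Atp5g2 had a match, and Cox7c and Atp5g1 had none. Atp5g2 was the lowest gene with a match. Cox6a1, with a mean of 1533 TPM, and Sdha, with 161 TPM, each had 3 matches. Shown are 227 bases at chr5:115348982-115349208 for Cox6a1 and 210 bases at chr13:74350281-74350490 for Sdha, both read 5′ to 3′ on the minus strand up to the annotated start. Capitals mark the NRF-1 matches; a pair of overlapping matches makes the first run of Cox6a1, and the third match of Sdha lies beyond the bases shown.
Cox6a1: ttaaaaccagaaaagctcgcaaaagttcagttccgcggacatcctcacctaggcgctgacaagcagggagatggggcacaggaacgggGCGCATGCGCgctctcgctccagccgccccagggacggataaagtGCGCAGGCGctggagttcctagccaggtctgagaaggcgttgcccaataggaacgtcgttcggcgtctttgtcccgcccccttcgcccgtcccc
Sdha: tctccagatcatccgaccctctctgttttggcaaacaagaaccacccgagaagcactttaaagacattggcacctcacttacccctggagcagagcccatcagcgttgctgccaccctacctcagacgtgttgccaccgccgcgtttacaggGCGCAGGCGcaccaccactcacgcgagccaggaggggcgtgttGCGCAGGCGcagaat

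The pools gave similar levels for most of these genes. Among the 46 at a mean of 10 TPM or more, the SD was under 10% of the mean for 23 and 20% or more for 6, with a highest value of 28.4%. Ratios of pool 2 to pool 1 are given as differences of log2(TPM + 1). The median ratio was 0.09, with 30 genes higher in pool 2 and 16 higher in pool 1, while the median over 6091 protein-coding genes at this level was -0.06. Only Atp5e passed 1.5-fold in either direction, with a ratio of 0.59. That is 1 of 46 higher, beside 1.61% of protein-coding genes, and 0 of 46 lower, beside 5.42%. Cox8a lay just inside at 0.57. On scaled expected counts both genes passed 1.5-fold higher, beside 2.33% of protein-coding genes with edgeR scaling and 2.73% with DESeq2 scaling.

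Transcript length moved with this ratio. The 21 genes under 600 nt had a median ratio of 0.24 and all 182 protein-coding genes of that length 0.18, whereas the 15 genes of 1000 nt or more had -0.06 and all 5171 of that length -0.11. After the median ratio of the 200 protein-coding genes nearest in length was subtracted, the median of the 46 genes was 0.02, with 24 above 0 and 22 below. Atp5e and Cox8a then lay at 0.41 and 0.42, inside 1.5-fold. Cox6b2, at -0.60, was the only gene past it, beside 2.04% of protein-coding genes lower and 1.81% higher.

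Other values also differed between the pools. The 5 blood markers summed to 651 TPM in pool 1 and 2274 TPM in pool 2, with Hba-a2 at 285 and 991 TPM. Spike-ins held 1.40% of pool 1 counts and 0.940% of pool 2 counts. Scaled to the spike-ins, the median ratio of the 46 genes was 0.76, and 37 of them passed 1.5-fold higher in pool 2, beside 52.3% of protein-coding genes. The part of blood RNA, spike-in amount and library preparation in the ratios was not tested.

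**Figure D5:**
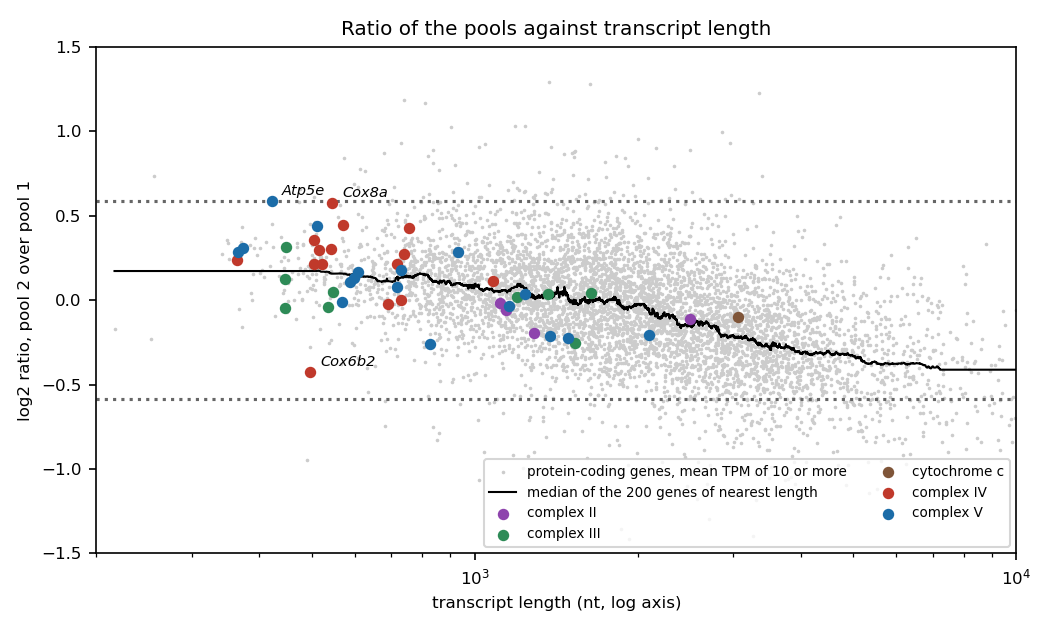
Log2 ratio of pool 2 over pool 1 against transcript length in nt (log axis) for the 46 genes at a mean of 10 TPM or more, coloured by complex, and for 6091 protein-coding genes (grey; 32 lie outside the axes). The black line is the median of the 200 genes nearest in length and dotted lines mark 1.5-fold; most short members lie above 0 together with other short genes, and Atp5e touches the upper line.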

How the data were processed

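RNA over 200 nt, with ERCC spike-ins, was sequenced from 2 pools of 50 cells. The authors deposited expected counts (estimated reads per gene or transcript, not normalized), TPM, and the percent of each transcript in its gene, made on mm10 with the GENCODE M4 annotation, per the file headers and the deposited notes. The sources used here name no aligner, quantifier or strand setting. The authors' estimates divide reads that fit several genes, so the values of genes with near-identical copies depend on that division. The files' 26248 entries with numeric identifiers and 97 spike-in entries were left out of gene totals, and the former took 4.06e-05% of the counts in pool 1. No columns of other samples are in the files.

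Symbols, types and coordinates came from GENCODE M21 on the same assembly (GRCm38). Detection was a TPM of 1 or more in both pools. Ratios used log2(TPM + 1), which understates the ratios of low genes, among genes whose mean TPM was at least 10. Copies were found with blastn 2.17.0 (e-value 1e-10). Expected counts were rounded for edgeR 4.0.16 and DESeq2 1.42.0, used only as alternative scales. With 1 group no test between conditions was made, and no p-value is given. The limit for 0 counts is 3 counts per library and, since there are no molecular identifiers and reads may be copies of 1 molecule, covers counting error only. Python 3.11.15, pandas 2.3.3 and R 4.3.3 were used.

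The genes, lists and settings were chosen with earlier results of these data known. Values in both pools are given for every gene of a subunit encoded by 2 or more genes, the 3 highest and the lowest of each complex, genes under the threshold and genes past 1.5-fold; other members are named by role. Of the assembly and regulator lists, the 3 highest and those under the threshold are named, and Nrf1 and the overlapping genes were added after their values were seen. Alternatives were other thresholds, pseudocounts, filters and scales, the deposited posterior mean TPM, shares of expected counts, each pool alone, and, chosen after seeing the data, the levels of copies added to the gene the range within a complex in each pool alone, and other measures of the ratio of Atp5b to Atp5a1.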

Additional observations from a re-analysis of the deposited data

How the results depend on the processing

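Alternatives that use both pools gave 101 values, of which 69 stayed within the spread between the pools (counts within 1.5 times) and 32 did not. Most of these values are shares, counts or ranges, which cannot be negative. Only the median ratio of the pools could change sign, and it stayed above 0. Shares of the genes of 1 subunit depend on each other, so the 101 values are not independent. For a ratio, that spread was the median SD between the pools over the genes, 0.14. For values averaged over the pools, each pool alone lies within that spread by construction, so it shows nothing on stability; the range within complex IV was 1919-fold in pool 1 and 3685-fold in pool 2, and 47 genes were detected in each. By expected counts, which weight long transcripts, the genes took 3.25% of nuclear protein-coding counts, with complex II at 5.24%, III at 16.1%, IV at 32.6%, V at 43.7% and Cycs at 2.34% of the sum. On that scale Cox7a1 took 3.32%, Cox7a2l 16.3%, Cox7b 99.4%, Cox7b2 0.588%, Atp5g1 44.7%, Atp5g2 3.92% and Atp5g3 51.4% of their subunits. With the listed TPM of copies added, the genes took 8.45% of nuclear protein-coding TPM, and complex III 16.2% and Cycs 4.38% of the sum. Atp5g1, Atp5g2 and Atp5g3 then took 52.1%, 9.88% and 38.0% of subunit c. The added TPM was not rescaled for length, which gives short copies more weight than their reads have, most of all for Cycs. With the posterior mean TPM, Cox8a took 99.99%, Cox8b 0.00602%, Cox8c 0.00408% and Atp5g2 3.61%; this estimate is above 0 for a gene without reads. The range within complex IV was 2622-fold over its 16 detected genes and 17.7-fold without the forms of other tissues. The median ratio of the pools was 0.76 on the spike-in scale and between 0.02 and 0.19 on every other setting run. Genes past the fold numbered 1 at 1.5-fold, 0 at 2-fold and 37 on the spike-in scale. At the lower fold tried they numbered 7, of which 6 were higher and 1 lower in pool 2. Of all protein-coding genes, 8.46% were higher and 20.5% lower at that fold, and 0.246% and 0.591% at 2-fold. With either TMM scaling in edgeR or DESeq2 size factors 2 genes passed, Atp5e and Cox8a in both. The length adjustment gave 1 gene, Cox6b2 instead of Atp5e, which was lower in pool 2, beside 1.81% higher and 2.04% lower. No paired analysis was possible because there is only 1 group. Depth limits the lowest genes: Cox6a2 rests on 15 and 14 expected counts.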
